A study of Mus musculus with 33 samples.

Results

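*Ttr*, *Folr1*, *Kl*, *Clic6*, *Kcne2*, *Otx2*, *Slc4a5* and *Aqp1*, 8 genes of the choroid plexus, were followed by their gene symbol in bulk RNA-seq libraries of the mouse posterior hypothalamus (PH) and preoptic area (POA). All 8 were among the 41565 named entries of the deposited table. *Ttr* spanned 144-fold from the lowest to the highest PH library and 81.9-fold over the POA libraries, and the libraries with much *Ttr* were found among intact mice and at both times after ovariectomy (OVX). *Folr1*, *Kl*, *Kcne2*, *Slc4a5* and *Aqp1* were highest in the same 7 libraries as *Ttr* in each region, whereas *Clic6* and *Otx2* each shared 6 of these 7 with *Ttr* among PH libraries, and 5 and 4 respectively among POA libraries. None of the 8 genes passed the test between intact mice and mice after OVX. Of all genes tested, 0% to 0.0937% did in these comparisons, and the intervals of *Ttr* were wide.

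The table holds 33 libraries of WT C57BL/6 female mice, 16 of the PH and 17 of the POA. Of the PH, 4 libraries came from intact mice killed in diestrus, 6 from mice 14 days after bilateral OVX and 6 from mice 4 months after it, and of the POA 5, 6 and 6. Surgery was done in adults at 3–4 months of age, so that time since OVX and age cannot be told apart. The sample titles call the controls sham and another label calls them intact, which is used here, and the libraries of every group were assigned to batch 1 or batch 2 in the labels. Operated mice had received isoflurane, Buprenex and meloxicam around surgery. Neither the labels nor the methods give how much choroid plexus a piece of tissue held. The values are normalized expression signal on a linear scale, in which genes without measurable expression lie near a floor of 22.1, and a log2 fold change of a weakly expressed gene is smaller on this scale than it would be for counts. The values give no read totals, so the depth is unknown and no interval for counting error can be given, and levels are not compared between the regions. Whether a library came from 1 mouse or from several is not stated, so that *P* values measure the spread between these libraries.

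The choroid plexus is a fringe of epithelium over a vascular core that hangs into the brain ventricles, including the third ventricle, which lies between the left and right hypothalamus. Its epithelial cells secrete cerebrospinal fluid, for which they use transporters and channels of the apical and basolateral membranes, and they secrete carrier proteins into it. *Ttr* encodes transthyretin, the carrier of thyroxine and retinol-binding protein, and is one of the most abundant mRNAs of these cells. *Folr1* encodes folate receptor alpha, which takes folate across the epithelium. *Kl* encodes klotho, the co-receptor of FGF23, which is also shed into the fluid. *Aqp1* is the apical water channel, *Slc4a5* a sodium bicarbonate cotransporter, *Kcne2* a subunit of potassium channels, *Clic6* a member of the chloride intracellular channel family, and *Otx2* a homeodomain transcription factor that the choroid plexus needs for its development and maintenance.

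In GENCODE M39 (GRCm39), all 8 members were protein-coding genes. *Kcne2* (chr16:92089219-92095027) and *Clic6* (chr16:92282624-92338739) lay on the plus strand of chromosome 16, separated by 187596 bases. *Aqp1* (chr6:55313068-55325540) and *Slc4a5* (chr6:83196810-83281927) lay on the plus strand of chromosome 6, *Kl* (chr5:150876072-150917284) on the plus strand of chromosome 5, *Folr1* (chr7:101507537-101520014) on the minus strand of chromosome 7 and *Otx2* (chr14:48894099-48911276) on the minus strand of chromosome 14.

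Because members moved together between libraries and 1 of them is a transcription factor, their promoter windows were read from RefSeq (GRCm38.p6), each with 250 bases before and 50 bases after an annotated start. The search covered 5 of the 8 members, *Kl*, *Aqp1*, *Slc4a5*, *Kcne2* and *Otx2*, 9 windows in all. No window was found for *Folr1* and *Clic6*. *Ttr* was left out of the search, so the count for the members does not cover it. The 9 windows were searched on both strands for TAATCC, the core recognized by OTX homeodomain proteins. Capitals mark the letters found, which read GGATTA on the other strand. Of the 9 windows, 1 held the motif, a window of *Otx2* itself. Among all 32851 windows of the table, 7.06% held it, and so did 3 of the 33 other choroid plexus genes with a window. The *Otx2* window is shown with windows of *Kcne2*, *Slc4a5* and *Kl*, 3 members whose highest libraries were those of *Ttr*.
Otx2, chr14:48665060-48665359, minus strand: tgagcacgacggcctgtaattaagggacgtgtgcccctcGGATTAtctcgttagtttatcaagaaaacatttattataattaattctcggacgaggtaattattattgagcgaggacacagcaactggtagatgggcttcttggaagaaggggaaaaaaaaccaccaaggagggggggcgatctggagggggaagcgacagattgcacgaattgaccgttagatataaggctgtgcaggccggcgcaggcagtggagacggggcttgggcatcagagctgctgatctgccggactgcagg
Kcne2, chr16:92292139-92292438, plus strand: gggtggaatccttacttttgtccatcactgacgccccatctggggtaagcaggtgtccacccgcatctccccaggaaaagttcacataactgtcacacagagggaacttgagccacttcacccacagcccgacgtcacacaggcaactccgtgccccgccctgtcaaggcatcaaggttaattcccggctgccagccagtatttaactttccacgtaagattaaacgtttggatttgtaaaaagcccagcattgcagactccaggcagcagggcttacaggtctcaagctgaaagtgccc
Slc4a5, chr6:83237125-83237424, plus strand: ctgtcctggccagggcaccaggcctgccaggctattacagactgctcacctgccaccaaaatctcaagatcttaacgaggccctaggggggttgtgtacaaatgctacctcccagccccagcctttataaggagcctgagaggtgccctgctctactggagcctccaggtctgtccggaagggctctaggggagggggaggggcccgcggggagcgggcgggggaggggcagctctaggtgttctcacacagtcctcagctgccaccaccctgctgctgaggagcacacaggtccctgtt
Kl, chr5:150952357-150952656, plus strand: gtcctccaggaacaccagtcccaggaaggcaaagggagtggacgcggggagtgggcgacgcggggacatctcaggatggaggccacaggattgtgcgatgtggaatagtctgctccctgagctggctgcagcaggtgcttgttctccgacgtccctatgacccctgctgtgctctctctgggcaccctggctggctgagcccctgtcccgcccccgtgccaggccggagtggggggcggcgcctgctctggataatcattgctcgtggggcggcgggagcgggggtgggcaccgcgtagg
A match of these letters is a description of the window and not a binding site.

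All 8 members passed the filter on low values, at least 2 times the floor in 4 PH or 5 POA libraries, and 6 of them reached 2 times the floor in every library of the series. The exceptions were *Kcne2*, present in 11 of 16 PH libraries, and *Slc4a5*, present in 12 of 16, while both were present in 17 of 17 POA libraries. *Ttr* was well above the floor everywhere, with a lowest value of 490 in the PH, 22.1 times the floor, and 947 in the POA, 42.8 times the floor. *Clic6* and *Otx2* were also far above the floor in libraries with little *Ttr*, with lowest PH values of 848 and 367 and lowest POA values of 1089 and 414. Of 37 further genes of the choroid plexus epithelium, 31 were present in every library and 0 were absent from all. In bulk tissue, fewer cells of a type and less RNA per cell cannot be told apart.

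*Ttr* was at 53502, 759, 1889 and 23292 in the 4 PH libraries of intact mice. At 14 days after OVX, the lowest, median and highest of 6 PH libraries were 490, 14887 and 37150, and at 4 months they were 705, 1063 and 70532. Values at or below 1889 and values at or above 23292 thus occurred in each group, with nothing between, and the groups overlapped over almost their whole range. The widest gap lay between 1889 and 23292, 3.62 on the log2 scale, whereas the next widest gap between neighbors was 0.60. Above it were 7 of 16 libraries, 2 of 4 from intact mice, 3 of 6 at 14 days and 2 of 6 at 4 months.

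In the POA, *Ttr* was at 77567, 2170, 1250, 14120 and 1379 in the 5 libraries of intact mice. At 14 days, the lowest, median and highest of 6 libraries were 1464, 2697 and 55902, and at 4 months they were 947, 8496 and 24015. The same division was seen, with a narrower gap between 3580 and 14120 (1.98 on the log2 scale, the next widest 0.97). Above it were 7 of 17 libraries, 2 of 5 from intact mice, 2 of 6 at 14 days and 3 of 6 at 4 months. Both batches were represented, with 3 of 8 PH libraries of batch 1 and 4 of 8 of batch 2 above the gap, and 3 of 8 and 4 of 9 in the POA.

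**Figure D1:**
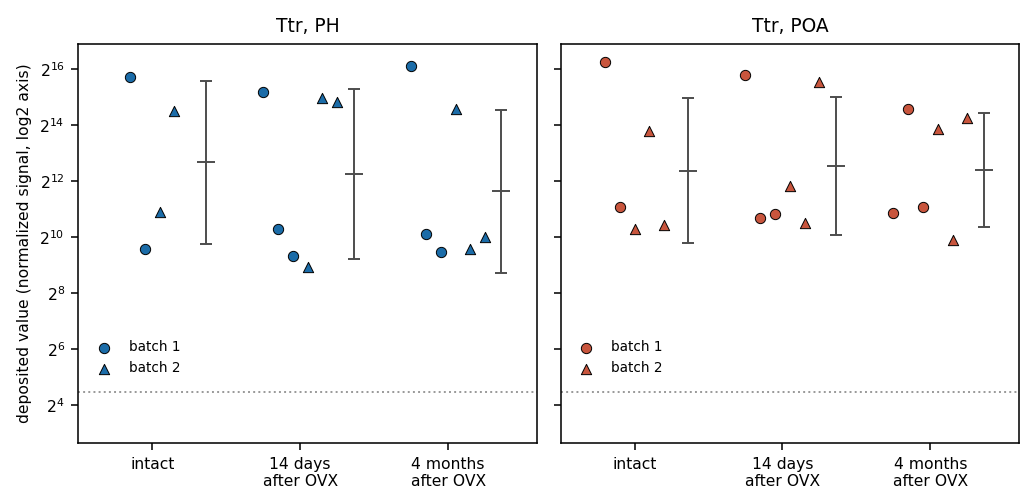
*Ttr* in every library, as the deposited value on a log2 axis, for the PH (left, 16 libraries) and the POA (right, 17 libraries) by group. Circles are batch 1 and triangles batch 2, the bar beside each group is the mean of the log2 values ± SD, and the dotted line is the floor of 22.1. Each group holds libraries at both ends, with none between 1889 and 23292 in the PH or between 3580 and 14120 in the POA.

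Libraries of the PH and the POA carry replicate numbers within each group, and 16 combinations of group and number occur in both regions. The labels do not say that such a pair came from 1 mouse. Of the 16, 5 were above the gap in both regions (replicates 1 and 4 of intact mice, 1 and 6 at 14 days, 4 at 4 months), 2 only in the PH, 2 in the POA alone and 7 in neither. Replicate 5 at 14 days and replicate 1 at 4 months were above it in the PH only, and replicates 2 and 6 at 4 months in the POA only. A high value in 1 region was thus not always accompanied by one in the other.

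The 7 PH libraries with the most *Ttr* were also the 7 with the most *Folr1*, *Kl*, *Kcne2*, *Slc4a5* and *Aqp1*, so that 5 of the 7 other members had the same 7 highest libraries as *Ttr*. Among all other genes tested in the PH, 45 of 21965 did (0.205%). *Clic6* and *Otx2* shared 6 of the 7. In the POA, the same 5 members had the same 7 highest libraries as *Ttr*, against 21 of 21338 genes (0.0984%), while *Clic6* shared 5 and *Otx2* 4. Of the 45 genes of the PH and the 21 of the POA, 18 were shared, 40.0% of the former and 85.7% of the latter. These 18 comprised 5 members, 10 genes of the list of other choroid plexus genes and 3 genes of neither. Shared or not, 23 of the 45 PH genes and 5 of the 21 POA genes were on neither list.

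**Figure D2:**
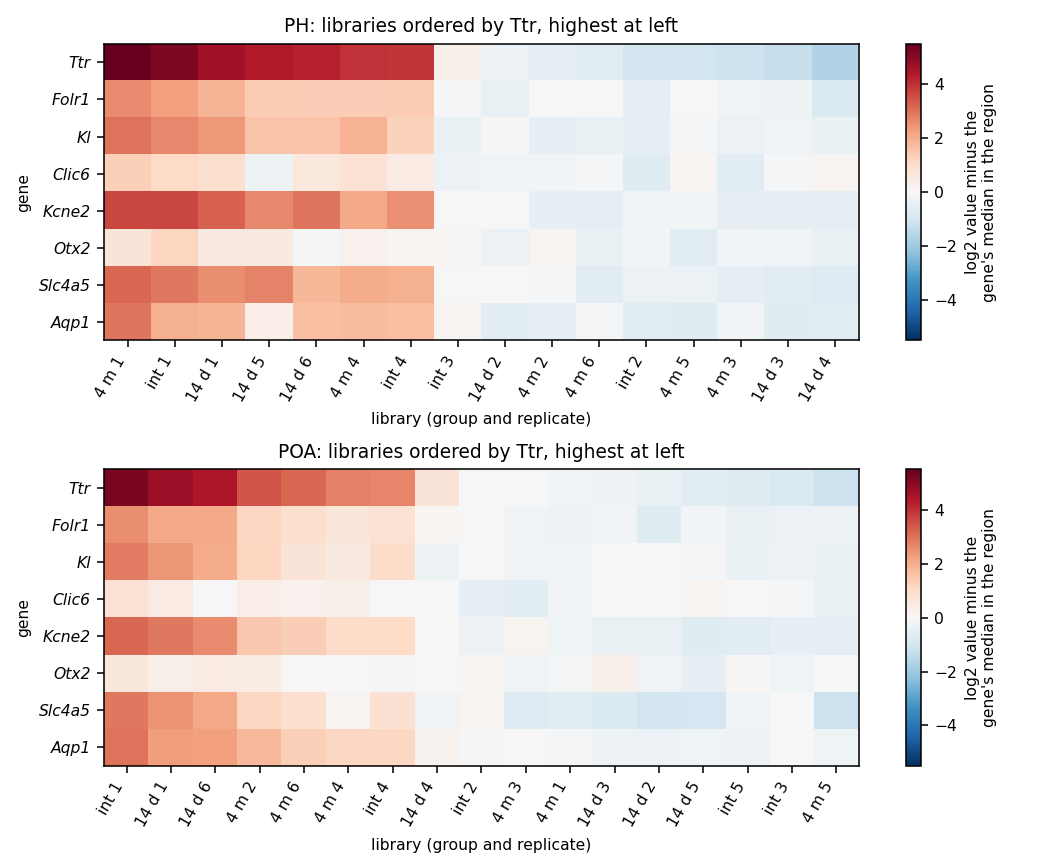
The 8 members (rows) in the libraries of the PH (top) and the POA (bottom), ordered from the most *Ttr* at the left, with the group (int, intact; 14 d and 4 m, after OVX) and replicate below. Color is the log2 value minus the median of the gene in the region. In both regions the 7 columns at the left are above the median for *Folr1*, *Kl*, *Kcne2*, *Slc4a5* and *Aqp1*, though some cells only slightly. *Otx2* and *Clic6* span a narrower range of color.

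Among the transporters and channels, *Kcne2* had the largest range after *Ttr* in the PH. It was at 755, 51.0, 57.4 and 332 in the 4 PH libraries of intact mice, and the lowest, median and highest values were 41.0, 213 and 557 at 14 days and 40.0, 47.9 and 754 at 4 months. The low values lay close to 2 times the floor, and the intact libraries with high *Kcne2* were replicates 1 and 4, as for *Ttr*. In the POA, *Kcne2* was at 781, 70.2, 64.2, 186 and 57.7 in intact mice, and ranged from 54.6 (median 76.4) to 646 at 14 days and from 61.9 (median 136) to 240 at 4 months.

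*Slc4a5*, the bicarbonate cotransporter, was at 468, 49.5, 60.05 and 243 in the 4 PH libraries of intact mice, with a lowest, median and highest value of 37.8, 140 and 408 at 14 days and 41.9, 54.8 and 552 at 4 months. In the POA, it was at 744, 110, 99.1, 179 and 89.0 in intact mice, with 47.7, 72.4 and 550 at 14 days and 44.2, 87.6 and 221 at 4 months. Intact replicates 1 and 4 were again the highest in both regions. *Aqp1*, the water channel, was at 277, 48.3, 76.9 and 224 in the intact PH libraries, with 45.3, 69.9 and 260 at 14 days and 45.5, 65.0 and 549 at 4 months. In the intact POA libraries, *Aqp1* was at 576, 70.1, 71.2, 159 and 59.0, with 58.8, 73.4 and 363 at 14 days and 61.7, 116 and 249 at 4 months. Its lowest value among the 7 PH libraries with the most *Ttr* was in replicate 5 at 14 days, where *Aqp1* was 92.5 at a *Ttr* of 31532.

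*Folr1* and *Kl* encode the receptor and the co-receptor of the set. *Folr1* was at 441, 64.7, 87.6 and 244 in the 4 intact PH libraries, with a lowest, median and highest value of 52.4, 154 and 336 at 14 days and 81.1, 91.9 and 556 at 4 months. In the POA, it was at 649, 112, 89.9, 191 and 84.6 in intact mice, with 70.8, 111 and 475 at 14 days and 92.4, 136 and 244 at 4 months. *Kl* started from a higher level, as its libraries with little *Ttr* still lay at 373 or more in the PH and 469 or more in the POA. It was at 3197, 373, 397 and 1245 in the intact PH libraries, with 399, 1038 and 2666 at 14 days and 381, 452 and 4119 at 4 months. In the POA, *Kl* was at 4430, 607, 487, 1220 and 477 in intact mice, with 499, 612 and 3308 at 14 days and 469, 688 and 1363 at 4 months.

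*Clic6* and *Otx2* spanned much narrower ranges than the other members. *Clic6* was at 2892, 848, 1068 and 1858 in the intact PH libraries, with 1111, 1375 and 2489 at 14 days and 898, 1349 and 3359 at 4 months, which is a 3.96-fold range over the region. In the POA, it was at 2896, 1218, 1553, 1662 and 1677 in intact mice, with 1648, 1690 and 2296 at 14 days and 1089, 1749 and 2166 at 4 months, a 2.66-fold range. Its lowest library at 14 days in the PH was replicate 5, which was above the gap for *Ttr*. *Otx2* was at 1266, 509, 588 and 607 in the intact PH libraries, with 425, 511 and 794 at 14 days and 367, 572 and 924 at 4 months, a 3.45-fold range. In the intact POA libraries, *Otx2* was at 860, 603, 473, 539 and 586, with 414, 613 and 764 at 14 days and 472, 559 and 739 at 4 months, a 2.07-fold range. The highest *Otx2* in each region was found in intact replicate 1, which also held the most *Ttr* of its group.

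**Figure D3:**
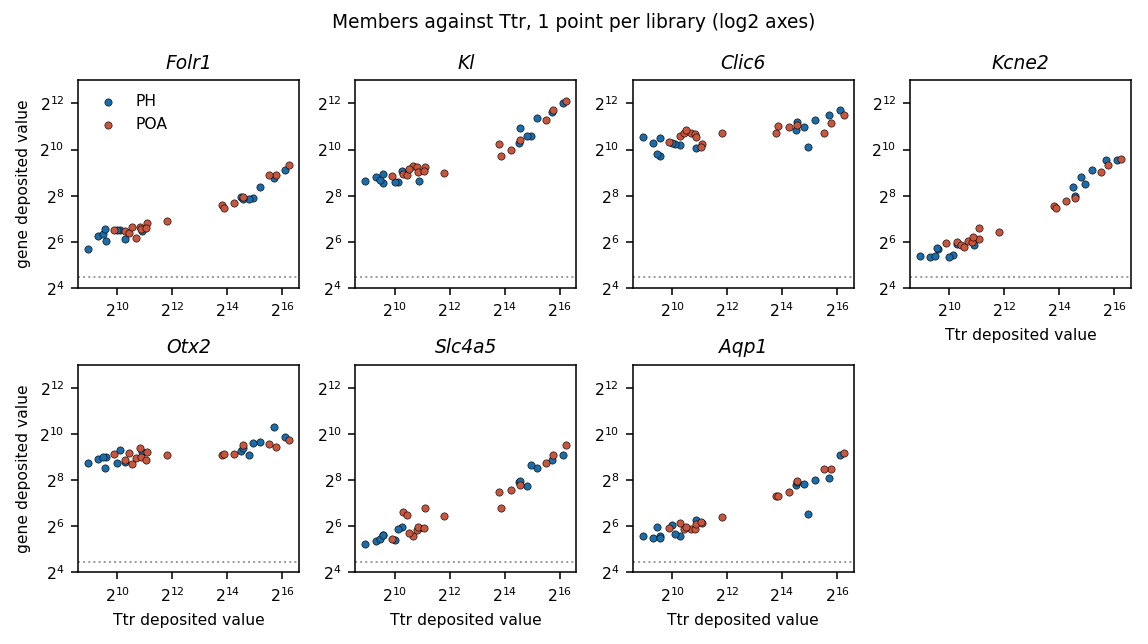
Deposited values of the other 7 members (y axes) against that of *Ttr* (x axes), both on log2 axes, with 1 point per library, blue for the PH and red for the POA. The dotted line is the floor of 22.1. *Folr1*, *Kl*, *Kcne2*, *Slc4a5* and *Aqp1* are highest in the 7 libraries of each region above the gap of *Ttr*, and *Clic6* and *Otx2* have the narrowest ranges.

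With the floor subtracted from both genes, *Folr1* lay between 6.88 and 9.53 per 1000 of *Ttr* in the 7 PH libraries above the gap and between 8.08 and 11.97 in the 7 POA libraries above it. *Kcne2* lay between 9.53 and 14.8 per 1000 of *Ttr* in these PH libraries and between 9.06 and 11.6 in these POA libraries. Within these 7 libraries of each region, the proportions of *Folr1* and *Kcne2* varied by less than 1.6-fold, while *Ttr* itself varied from 23292 to 70532 in the PH and from 14120 to 77567 in the POA. *Slc4a5* lay at 6.81 to 12.2 per 1000 in the PH and 6.03 to 11.2 in the POA, and *Kl* at 47.9 to 79.1 and 50.4 to 84.9. *Aqp1* lay at 6.10 to 9.74 per 1000 in the POA and at 2.23 to 9.07 in the PH, where the lowest proportion was that of replicate 5 at 14 days. *Otx2*, at 12.8 to 26.8 in the PH and 10.8 to 36.6 in the POA, and *Clic6*, at 34.6 to 97.0 and 35.1 to 138, had wider ranges than *Folr1* and *Kcne2*. In the libraries below the gap, *Folr1* lay between 35.1 and 96.8 per 1000 of *Ttr* and *Kcne2* between 17.95 and 42.1 in the 9 of the PH. In the 10 of the POA, these proportions were 27.5 to 75.9 for *Folr1* and 18.2 to 43.0 for *Kcne2*.

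The members were also compared with *Ttr* through the log2 values centered on the group means, with *Ttr* permuted within groups (100000 permutations, two-sided) and a Benjamini-Hochberg adjustment over every gene of the region. In the PH, 6 of 7 members were called with a positive correlation, against 68 of 21965 genes (0.31%), and *Clic6* was not (adjusted *P* = 0.161, permutation). In the POA, 5 of 7 were called, against 22 of 21338 genes (0.103%), and *Clic6* (adjusted *P* = 0.389, permutation) and *Otx2* (0.461) were not. By the size of the correlation, the first 3 of all genes were *Slc4a5*, *Kcne2* and *Folr1* in the PH, and *Aqp1* was the first in the POA. No pooled coefficient is given, since the libraries fall into separate sets above and below the gap.

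The number of calls changed as single libraries were left out. The smallest *P* that the permutations can give is 1e-05, so a call needs several genes at or near this limit. The counts can therefore move in steps, and they do not settle whether the calls depend on single libraries. In the PH, 0 members were called without intact replicate 1 or 4, 14-day replicate 3 or 4, or 4-month replicate 1 or 4, 3 without 14-day replicate 2, and 4 to 7 without any 1 of the others. The count was 7 without 14-day replicate 5, where *Clic6* was called as well. In the POA, 0 were called without intact replicate 2 or 4-month replicate 3 or 5, 3 without intact replicate 1 or 4-month replicate 2 or 4, and 4 or 5 without any 1 of the others. With values centered on group and batch, 0 members were called in each region. There *Ttr* was permuted only among the 2 or 3 libraries of a group and batch. The few possible orders make the smallest possible *P* larger. A call over all genes was then hardly attainable, so these 0 calls decide nothing.

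Within the 7 PH libraries above the gap, Pearson's r with *Ttr* was 0.97 for *Folr1* (Spearman's rho 0.79, exact permutation *P* = 0.00298), 0.92 for *Kcne2* (rho 0.89, exact permutation *P* = 0.00357) and 0.92 for *Kl* (rho 0.86, exact permutation *P* = 0.00298). Without the 2 libraries farthest from the median of *Ttr*, r was 0.75, 0.84 and 0.67, and centered on batch it was 0.86, 0.67 and 0.64. *Slc4a5* had an r of 0.89 and *Otx2* of 0.79, and *Clic6* (0.62) and *Aqp1* (0.60) had the lowest, which fell to -0.06 and -0.19 without the 2 farthest libraries. In the 7 POA libraries above the gap, r was 0.99 for *Kcne2* and *Folr1*, 0.98 for *Aqp1*, 0.97 for *Slc4a5* and *Kl*, 0.88 for *Otx2* and 0.58 for *Clic6*. Spearman's coefficient was 0.96 for *Kcne2*, *Folr1* and *Slc4a5*, 1 for *Aqp1* and 0.89 for *Kl*. Exact permutation *P* was 0.000397 for *Kcne2*, 0.000595 for *Folr1* and *Slc4a5*, and 0.000198 for *Aqp1*, the smallest that 7 libraries can give. Without the 2 farthest libraries, r was 0.98 for *Kcne2*, *Folr1* and *Aqp1*, 0.92 for *Slc4a5* and 0.90 for *Kl*, and centered on batch it was 0.95 to 0.99 for these 5 genes. Each of these relations was 1 of 21965 in the PH or 21338 in the POA, and 0 genes passed the Benjamini-Hochberg adjustment over them, with a smallest adjusted *P* of 0.726 in the PH and 0.423 in the POA (exact permutation).

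In the 9 PH libraries below the gap, r was 0.81 for *Slc4a5* (rho 0.87, exact permutation *P* = 0.00754), 0.60 for *Kcne2* and *Aqp1* (exact permutation *P* = 0.0895 and 0.0931), 0.54 for *Folr1*, 0.48 for *Otx2*, 0.04 for *Kl* and -0.23 for *Clic6*. In the 10 POA libraries below it, r was 0.72 for *Kcne2* (rho 0.82, permutation *P* = 0.0188), 0.70 for *Aqp1* (rho 0.53, permutation *P* = 0.0247), 0.58 for *Folr1*, 0.37 for *Slc4a5*, 0.28 for *Kl*, 0.13 for *Otx2* and -0.03 for *Clic6*. The smallest adjusted *P* over all genes was 1.00 in the PH and 0.943 in the POA (permutation). Without the 2 farthest libraries, the r of *Slc4a5* in the PH was 0.70, that of *Kcne2* in the POA 0.72 and that of *Aqp1* in the POA 0.35. Centered on batch, these were 0.86, 0.68 and 0.77.

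The spread of the members within groups was large compared with that of other genes. The SD within groups of *Ttr* was 2.96 on the log2 scale in the PH, the 5th largest of 21966 genes tested, and 2.36 in the POA, the 9th largest of 21339, whereas the median gene had an SD of 0.26 and 0.22. *Kcne2* (1.82), *Slc4a5* (1.57), *Kl* (1.36), *Aqp1* (1.30) and *Folr1* (1.17) ranked 29th, 46th, 72nd, 85th and 113th in the PH. In the POA, *Kcne2* (1.39), *Slc4a5* (1.30), *Aqp1* (1.18), *Kl* (1.09) and *Folr1* (1.05) ranked 40th, 44th, 54th, 73rd and 93rd. *Clic6* had an SD of 0.65 in the PH and 0.36 in the POA, above 97.6% and 89.1% of genes, and *Otx2* one of 0.48 and 0.30, above 93.2% and 77.7%. Within groups and batches, the SD of *Ttr* was 3.33 in the PH and 2.55 in the POA, ranking 2nd and 3rd, so the spread was no smaller between libraries of 1 batch.

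**Figure D4:**
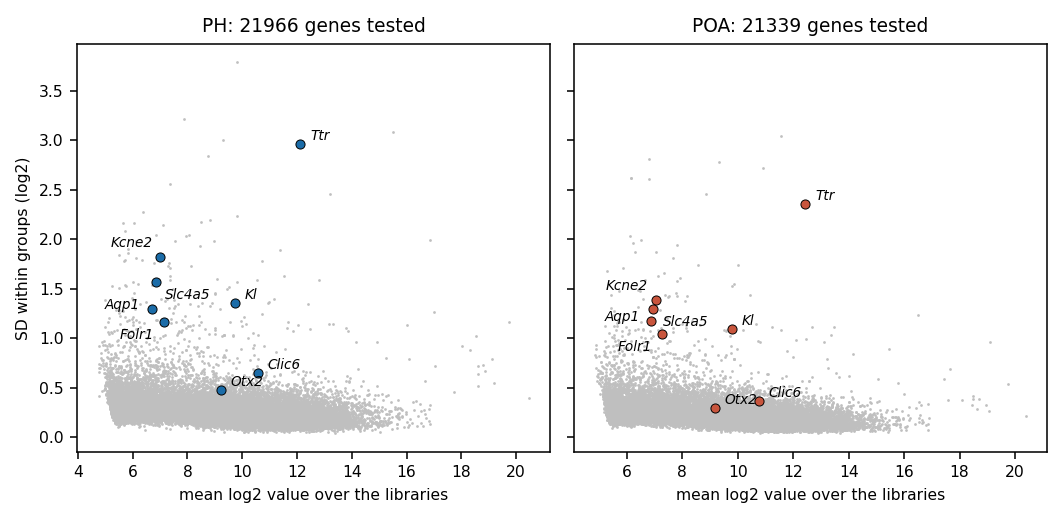
SD within groups (y axis, log2) against the mean log2 value over the libraries of the region (x axis) for each gene tested in the PH (left, 21966 genes) and the POA (right, 21339 genes), with the 8 members in color. At a high mean, *Ttr* has an SD of 2.96 (PH) and 2.36 (POA), and *Clic6* and *Otx2* lie near the cloud of other genes.

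Of the 37 other genes of the choroid plexus epithelium, which were chosen with earlier results of these data known, 19 were called with *Ttr* in the PH. In the POA, 10 were called (permutation), and 17 (PH) and 11 (POA) had the same 7 highest libraries as *Ttr*. Over all genes, 0.31% (PH) and 0.103% (POA) were called, and 0.205% and 0.0984% had the same 7 libraries. The summed level of the 37 genes lay at 107510 to 181272 in intact mice, 103719 to 175788 at 14 days and 101238 to 184134 at 4 months in the PH, and at 110823 to 207511, 106977 to 183357 and 105173 to 148336 in the POA. Called in both regions were *Enpp2*, which encodes autotaxin, the potassium channel gene *Kcnj13*, the tight junction gene *Cldn2*, the coagulation factor gene *F5*, *Sostdc1*, *Tmem72*, *Mfrp*, *Ecrg4*, *Steap1* and *Col8a1*. In the PH alone, *Car12*, *Cldn1*, *Krt8*, *Krt18*, *Trpv4*, *Slc13a4*, *Slc31a1*, *Pcolce* and *Cab39l* were also called, and whether the regions differ in this was not tested.

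The 5 genes outside the members with the closest correlation to *Ttr* were *Sostdc1*, *Kcnj13*, *F5*, *Mfrp* and *Car12* over the 16 PH libraries, and *Mfrp*, *Ecrg4*, *Cldn2*, *F5* and *Tmem72* over the 17 POA libraries. They were taken from all genes tested, and all of them were on the list of choroid plexus genes. That list was chosen with earlier results of these data known, so this is no independent match. In the PH, the seventh highest library of *Kcnj13* was at 292 and the next at 83.7, and for *F5* these values were 441 and 165. In the POA, they were 257 and 145 for *Mfrp* and 175 and 120 for *Cldn2*, and in each of these cases the 7 libraries were those with the most *Ttr*. *Enpp2*, which other cells of the brain also express, went from 23209 to 12799 at this step in the PH and from 19449 to 15455 in the POA.

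Genes of 14 other tissues and cell types were looked up beside the members, since the third ventricle is bordered by several of them. In these lists, 0 genes had the same 7 highest libraries as *Ttr* in either region, and 0 were called with *Ttr* in the POA. Over all genes, 0.205% (PH) and 0.0984% (POA) had the same 7 libraries, and 0.31% and 0.103% were called. For lists this short, 0 is thus near the background. All but 1 of the 7 were shared by 2 fibroblast and meningeal and 2 cortex and hippocampus genes in the PH. In the POA, 2 ependymal genes and 1 endothelial gene did so. In the PH, 1 was called, *Emx1* of the cortex and hippocampus list (8 genes), named for this call after its values were seen, at 26.3 to 101. The ventricle-lining cells were represented by ependymal genes, summed at 3910 to 6432 in the PH and 4099 to 11111 in the POA, and tanycyte genes, at 4065 to 5608 and 3057 to 5381. Of the former, *Foxj1* ranged from 445 to 1306 in the PH and *Ccdc153* from 505 to 1309, and of the latter *Rax* from 38.3 to 67.2 and *Col23a1* from 353 to 1097. These ranges were far narrower than that of the summed members, 2702 to 81346 in the PH and 3532 to 88503 in the POA. That sum was mostly *Ttr* where it was highest, as *Ttr* alone reached 70532 and 77567. The 37 other choroid plexus genes summed to 101238 to 184134 in the PH and 105173 to 207511 in the POA. In proportion, this was also a far narrower range than that of the members. A sum follows its most abundant genes, so it does not give the range of single genes of the list. In the PH, *F5* ran from 79.9 to 1839 and *Kcnj13* from 52.5 to 1017, both small beside the sum, while *Slc31a1* ran from 1010 to 1988.

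Of the genes of the meninges, vessels and blood, 0 were called with *Ttr*, against 0.31% (PH) and 0.103% (POA) of all genes. Fibroblast and meningeal genes summed to 4663 to 11413 in the PH and 4058 to 13838 in the POA (*Col1a1* at 234 to 532 and *Col1a2* at 594 to 1158 in the PH), with 10 of 10 present in every library. Endothelial genes summed to 9759 to 14422 and 9936 to 14180 (*Cldn5* at 318 to 1191 and *Pecam1* at 881 to 3016 in the PH). Red cell genes summed to 6507 to 37251 in the PH and 7050 to 22657 in the POA, with *Hba-a1* at 683 to 5001 and *Hba-a2* at 1651 to 12207 in the PH, and *Alas2* was called higher at 4 months than in intact PH (log2 fold change 1.37, SE 0.22, adjusted *P* = 0.0301, limma), 1 of 5 in the list. *Alas2* was named for this call, after its values were seen. By sign alone, the correlation with *Ttr* was positive for 10 of 10 fibroblast and meningeal genes, 10 of 10 ependymal genes and 8 of 8 thalamic genes in the POA, and for 8 of 10, 6 of 10 and 1 of 8 in the PH. Other lists were also one-sided. In the POA, 0 of 8 striatal and 1 of 8 neuronal genes were positive. In the PH, 0 of 5 red cell genes and 7 of 8 cortex and hippocampus genes were. The share of positive signs over all genes is not given, so these counts have no background. The part of these tissues in the result was not tested.

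Genes of neighboring brain regions varied as well. Thalamic genes summed to 18196 to 68902 in the PH and 16679 to 59017 in the POA (*Tcf7l2* at 2712 to 13184 and *Lef1* at 511 to 2085 in the PH). Habenular genes, from the epithalamus at the roof of the third ventricle, summed to 4459 to 11248 and 3609 to 7928 (*Gpr151* at 196 to 785 and *Nwd2* at 1159 to 3723 in the PH). Cortex and hippocampus genes summed to 4682 to 11601 and 4079 to 13371 (*Slc17a7* at 1317 to 4717 and *Neurod6* at 49.0 to 1580 in the PH), and striatal genes to 5451.1 to 14426 and 6486 to 13708 (*Drd1* at 258 to 973 and *Drd2* at 662 to 1247 in the PH).

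Anterior pituitary genes summed to 293 to 4165 in the PH and 255 to 7295 in the POA, with *Gh* at 21.8 to 3634 and *Prl* at 22.3 to 2920 in the POA, so that both defining hormones lay at the floor in some libraries, and 4 of the 8 genes were tested in each region. Arcuate genes summed to 2593 to 4913 and 2183 to 9523 (*Agrp* at 53.9 to 126 and *Npy* at 297 to 744 in the PH). Genes of the lateral and posterior hypothalamus summed to 3300 to 16350 and 2934 to 10520 (*Hcrt* at 126 to 871 and *Pmch* at 438 to 10386 in the PH), and those of the preoptic area to 4342 to 7247 and 4245 to 6371 (*Gnrh1* at 57.1 to 255 and *Lhx8* at 74.9 to 826 in the POA). Neuronal genes summed to 172946 to 318690 and 145739 to 226693 (*Snap25* at 60401 to 181002 and *Syt1* at 39119 to 67373 in the PH). How the tissue was cut, and its part in the amount of choroid plexus RNA of a library, was not tested.

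Whether OVX changed the members was tested with limma on the log2 values of each region, with terms for group and for a surrogate variable estimated from the data (SV1), and *P* was adjusted over all genes tested. At 14 days in the PH, 0 of 8 members were called, against 0% of 21966 genes. At 4 months, 0 of 8 were called against intact mice (background 0.0319%) and 0 of 8 against 14 days (0.0091%). In the POA, 0 of 8 members were called at 14 days (background 0.00469% of 21339 genes), at 4 months against intact mice (0.0937%) and at 4 months against 14 days (0.0281%). In each of these comparisons 0 members had an unadjusted *P* under 0.05, and 0 were called by limma without a trend and robust variances.

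The intervals of these differences were wide. The log2 fold change of *Ttr* in the PH was -0.98 at 14 days (95% interval -5.18 to 3.21, adjusted *P* = 1.00, limma) and -0.88 at 4 months (-4.96 to 3.20, adjusted *P* = 0.972). In the POA, it was 0.14 (-3.06 to 3.34) and 0.03 (-3.18 to 3.24). Each of these 4 intervals included an 8-fold change in either direction. With 1 library left out in turn, the log2 fold change of *Ttr* in the PH ran from -2.06 (without intact replicate 2) to -0.038 (without intact replicate 1) at 14 days, and from -1.93 (without intact replicate 2) to -0.046 (without intact replicate 4) at 4 months. In the PH, the values also differed between batches, with a difference of the mean log2 *Ttr* of -1.05 in batch 1 and 0.20 in batch 2 at 14 days, and of -0.74 and -1.33 at 4 months. In the POA, these differences were -1.24 and 1.11 at 14 days and -1.51 and 1.16 at 4 months, opposite in the batches at both times.

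The members with the narrowest spread had the narrowest intervals. *Otx2* had a log2 fold change of -0.47 at 14 days in the PH (95% interval -0.98 to 0.05), the smallest unadjusted *P* of any member (0.0722, adjusted *P* = 1.00, limma), and of -0.25 at 4 months (-0.75 to 0.25). Within batches, its difference at 14 days was -0.53 in batch 1 and -0.08 in batch 2. In the POA, *Otx2* was at -0.06 (-0.40 to 0.28) and -0.12 (-0.46 to 0.22). *Clic6* was at 0.07 (-0.88 to 1.02) and 0.08 (-0.84 to 1.00) in the PH and at 0.05 (-0.42 to 0.52) and -0.09 (-0.55 to 0.38) in the POA, so that a change of *Clic6* by more than 1.5-fold lay outside both intervals of the POA.

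The intervals of the other members were narrower than those of *Ttr* and wider than those of *Otx2*. At 14 days in the PH, the log2 fold change was -0.49 for *Folr1*, -0.17 for *Kl*, -0.52 for *Kcne2*, -0.54 for *Slc4a5* and -0.52 for *Aqp1*, and at 4 months -0.09, -0.09, -0.70, -0.40 and -0.22. The median of the 8 members was -0.50 at 14 days and -0.24 at 4 months, against medians of -0.0018 and -0.0094 over all genes. Members moved together between libraries, so the 8 values are not independent and their median is a description. Within batches 1 and 2, the PH difference at 14 days was -0.33 and 0.48 for *Kl*, -0.82 and 0.46 for *Kcne2*. It was -0.62 and 0.31 for *Slc4a5*, -0.48 and -0.03 for *Folr1*, and -0.49 and -0.39 for *Aqp1*. In the POA, it was 0.03 for *Folr1*, 0.0031 for *Kl*, 0.06 for *Kcne2*, -0.49 for *Slc4a5* and -0.09 for *Aqp1* at 14 days, and -0.20, -0.43, -0.07, -0.81 and -0.10 at 4 months, with a median over the 8 members of 0.01 and -0.11. Of the 37 other choroid plexus genes, 0 were called in any of these comparisons, and their median log2 fold changes were -0.16 and -0.06 for the PH, then 0.02 and -0.12 for the POA. The comparisons of a region share their libraries of intact mice.

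**Figure D5:**
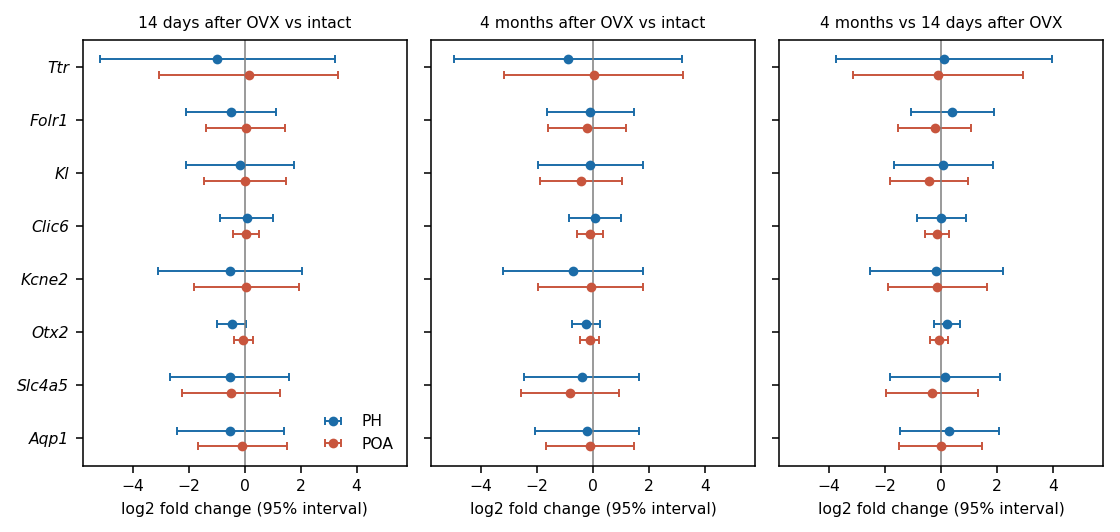
Log2 fold change of the 8 members (rows) with the 95% interval from limma, at 14 days after OVX against intact mice, at 4 months against intact mice and at 4 months against 14 days (panels), in the PH (blue) and the POA (red). Every interval includes 0, and those of *Ttr* reach beyond 2.9 on both sides.

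The response of the members was also compared between the regions, by an interaction term over the 33 libraries. According to the methods, PH and POA were both collected from the mice, so libraries of both regions may share a mouse. The labels do not give the pairs, and the fit treated all libraries as independent. At 14 days, 0 of 8 members were called (background 0.00452% of 22108 genes), and at 4 months 0 of 8 (0.00905%), with 0 members at an unadjusted *P* under 0.05 at either time (limma). The difference of the log2 fold change of *Ttr*, PH minus POA, was -0.77 at 14 days (95% interval -5.61 to 4.06) and -0.81 at 4 months (-5.66 to 4.03).

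Among POA libraries, SV1 separated the batches, lying at 0.186 or higher throughout batch 1 and at -0.125 or lower throughout batch 2. In the PH, SV1 stood at 0.785 in replicate 5 at 14 days and at most 0.195 in the other 15 libraries. This is the library in which *Clic6* and *Aqp1* were low at a *Ttr* of 31532. Without it, the log2 fold change of *Ttr* at 14 days was -1.03, and 0 of 8 members were called at 14 days, as with it. As SV1 in the PH mostly marked this library, the fit had already set it largely aside. Leaving it out is therefore no separate check of the fold change. Without a covariate, the mean log2 *Ttr* of the PH was 12.24 at 14 days and 12.67 in intact mice.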

How the data were processed

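Tissue was dissected and flash frozen, and stranded mRNA libraries were prepared from total RNA. According to the methods and the labels, the authors used kallisto (mm39, GENCODE M30) for pseudoalignment, tximport for gene-level summaries and DESeq2 for normalization. The deposited signal is decimal and not counts, with a floor of 22.1 and 0.000219% whole numbers, and the step that made it is not given in the sources used here. The 1259 entries without a name were left out.

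Since the deposited values are not counts, log2 values without a pseudocount were fitted in R 4.3.3 with limma 3.58.1 (trend and robust), with SV1 from an iteratively reweighted surrogate variable analysis of 5 rounds written in base R. Benjamini-Hochberg adjustment was used throughout, with a threshold of 0.05. Correlations, sequences and figures were made with Python 3.11.15, numpy 2.4.6, pandas 2.3.3, scipy 1.17.1 and matplotlib 3.10.9. Scripts were tested on simulated data. The members and the gene lists were chosen with earlier results of these data known. The text names the members, other choroid plexus genes that were called, the 5 genes most like *Ttr* in each region and the first 2 genes of each other list. The alternatives were batch, no covariate or both in place of SV1, the replicate number as a block, a pseudocount of 50, no filter, only the 2 groups compared, limma without trend and robust, Spearman correlation, centering on batch, and each library left out.

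Same-numbered libraries of a region were not treated as pairs.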

Additional observations from a re-analysis of the deposited data

Results flagged for a closer look

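In the POA at 14 days after OVX, *Clic6* in replicate 1 was at 2296, with the nearest of the 6 libraries at 1861, and it stood apart from the others of its group on the log2 scale. The gap was 0.633 of the range of the group, against a critical value of 0.625 of Dixon's test. This library was also the highest of its group for *Ttr*, at 55902. Of 48 combinations of member and group examined, it was the 1 that stood apart, and chance gives about 1 in 20.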

How the results depend on the processing

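In the 8 limma comparisons, 0 members were called under every alternative run, with a smallest adjusted *P* of 0.728. The calls with *Ttr* (permutation) fell from 6 (PH) and 5 (POA) of 7 members to 0 and 0 without the 2 libraries farthest from the median of *Ttr*. They were also 0 and 0 with values centered on group and batch, where permutation within so few libraries made a call hardly attainable. With 1 library left out, they ranged from 0 to 7 in the PH and from 0 to 5 in the POA. With Spearman correlation they were 5 and 5. The cause was not tested. The depth of these libraries is unknown, so what it limits could not be stated.

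Of 384 fold changes of members under other settings, 359 kept their direction and 25 did not, all of them uncalled. With batch in place of SV1, and equally with no covariate, log2 fold changes became 0.074 (*Kl*) at 14 days against intact mice in the PH and -0.61 (*Ttr*), -0.23 (*Kl*), -0.35 (*Slc4a5*) at 4 months against 14 days in the PH. With the replicate block, they became -0.016 (*Clic6*) at 4 months against 14 days in the PH, -0.35 (*Ttr*), -0.11 (*Folr1*), -0.11 (*Kl*), -0.10 (*Kcne2*) at 14 days against intact mice in the POA and -0.46 (*Ttr*) at 4 months in the POA. With only the 2 groups compared, they became -0.010 (*Kl*), -0.056 (*Clic6*) at 4 months against 14 days in the PH, -0.0020 (*Kl*) at 14 days against intact mice in the POA and -0.092 (*Ttr*) at 4 months in the POA. With SV1 and batch together, they became 0.15 (*Aqp1*) at 14 days against intact mice in the POA, 0.10 (*Folr1*), 0.34 (*Kcne2*), 0.22 (*Aqp1*) at 4 months in the POA and 0.029 (*Ttr*), 0.068 (*Aqp1*) at 4 months against 14 days in the POA. With a pseudocount of 50, 1 became -0.00071 (*Kl*) at 14 days against intact mice in the POA. Same-numbered libraries share only a number, and their deviations from the group means correlated at -0.18 to 0.39 over 14 PH pairs and -0.31 to 0.39 over 16 POA pairs. The replicate block called 0 members.

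With 1 library left out in turn, 652 of 792 fold changes kept their direction and 140 did not, and 11 of 48 member comparisons kept it throughout. The ranges of those that did not were as follows. At 14 days against intact mice in the PH, they ran from -0.93 to 0.0018 for *Folr1*, -0.60 to 0.47 for *Kl*, -0.20 to 0.50 for *Clic6* and -1.16 to 0.20 for *Kcne2*. At 4 months in the PH, they ran from -0.52 to 0.31 for *Folr1*, -0.55 to 0.44 for *Kl*, -0.19 to 0.44 for *Clic6*, -0.90 to 0.028 for *Slc4a5* and -0.71 to 0.15 for *Aqp1*. At 4 months against 14 days in the PH, they ran from -0.85 to 1.19 for *Ttr*, -0.021 to 0.78 for *Folr1*, -0.43 to 0.49 for *Kl*, -0.25 to 0.24 for *Clic6*, -0.82 to 0.50 for *Kcne2*, -0.38 to 0.68 for *Slc4a5* and -0.24 to 0.75 for *Aqp1*. At 14 days against intact mice in the POA, they ran from -0.66 to 1.31 for *Ttr*, -0.38 to 0.64 for *Folr1*, -0.41 to 0.63 for *Kl*, -0.11 to 0.27 for *Clic6*, -0.48 to 0.82 for *Kcne2*, -0.19 to 0.071 for *Otx2*, -0.9999 to 0.14 for *Slc4a5* and -0.52 to 0.59 for *Aqp1*. At 4 months in the POA, they ran from -0.46 to 1.21 for *Ttr*, -0.42 to 0.41 for *Folr1*, -0.67 to 0.20 for *Kl*, -0.25 to 0.13 for *Clic6*, -0.36 to 0.70 for *Kcne2*, -0.19 to 0.013 for *Otx2* and -0.35 to 0.58 for *Aqp1*. At 4 months against 14 days in the POA, they ran from -0.56 to 0.58 for *Ttr*, -0.50 to 0.11 for *Folr1*, -0.41 to 0.34 for *Kcne2*, -0.15 to 0.046 for *Otx2*, -0.62 to 0.14 for *Slc4a5* and -0.25 to 0.34 for *Aqp1*.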
